A study of Mus musculus with 12 samples.

Results

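Interferon-stimulated genes are the genes that cells switch on when an interferon, a cytokine of antiviral defence, binds its receptor. A set of 40 of them was followed in gonadal white adipose tissue, the fat along the reproductive tract of the mouse. The members were chosen by gene symbol in the deposited count table of 32238 genes, all 40 were found, and all 40 were among the 20297 genes with enough counts to be tested. They comprise 4 genes of the IFIT family, 5 oligoadenylate synthetases, 2 Mx genes, 11 other effectors, 3 genes of the ISG15 modifier system, 4 sensors of foreign nucleic acid, 3 transcription factors, 5 guanylate-binding proteins and 3 immunity-related GTPases.

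The study crossed genotype with diet. Wild-type mice (WT) and mice with a macrophage-specific knockout of Bnip3 (MKO), which encodes a mitophagy receptor of the outer mitochondrial membrane, received a normal chow diet (NCD) or a high-fat diet (HFD) for 12 weeks from 8 weeks of age. The 4 groups, called WT NCD, MKO NCD, WT HFD and MKO HFD, held 3 biological replicates each, and the RNA came from the whole tissue. The Cre line behind the deletion, the strain, and whether the WT mice carry a floxed allele or a Cre transgene are not given in the sources used here.

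Interferons act through paired receptors that carry JAK kinases. Type I interferons, bound by Ifnar1 and Ifnar2, lead a complex that holds STAT2 and IRF9 to the interferon-stimulated response element (ISRE) in promoters, and interferon gamma, bound by Ifngr1 and Ifngr2, acts through the gamma-activated site (GAS). Many genes answer to both, with the IFIT genes and oligoadenylate synthetases best known as type I targets and the guanylate-binding proteins and immunity-related GTPases as strong interferon gamma targets. Macrophages, endothelial cells and adipocytes can all respond, so RNA of the whole tissue mixes their answers.

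Total counts ranged from 52.9 to 72.7 M per library. MKO NCD replicate 2 stood apart: 57.3% of all genes were at 0 there against 15.6% to 38.3% in the other 11 libraries, and 702 genes had no count there but 100 or more in every remaining library. The members at 0 in that library numbered 6, namely Oas1a, Oas3, Oasl1, Mx1, Mx2 and Ifi44, so results are also given without it. The 3 WT NCD libraries carried epididymis transcripts, with markers summing to 6353 to 6890 CPM (counts scaled to a common library size) against at most 19.5 CPM in the other 9 libraries. No adipocyte marker of 10 was at 0 in any library, and their sum was 19094 to 39111 CPM. Bnip3 itself was at 392.4 to 567.7 CPM in WT NCD, 547.2 to 810.6 in MKO NCD, 357.5 to 417.6 in WT HFD and 414.7 to 475.7 in MKO HFD, so whole-tissue RNA gave no check of a deletion in macrophages alone.

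Macrophage markers, 18 genes in all, moved with diet and genotype. Summed, they reached 562.0, 1354 and 798.6 CPM in WT NCD, 872.2, 1033 and 740.5 CPM in MKO NCD, 4251, 5843 and 3720 CPM in WT HFD, and 958.4, 648.7 and 1597 CPM in MKO HFD. The WT HFD libraries lay above all others. In the fit of all libraries, 13 of the 18 were higher in WT HFD than WT NCD and 13 lower in MKO HFD than WT HFD. The shares of all tested genes were 9.5% and 2.24%. Without MKO NCD replicate 2 the counts were 13 and 15, against 15.1% and 4.74%. With all libraries, edgeR called 0 between the genotypes on NCD and 0 between the diets in MKO, where 2 and 3 had an unadjusted p under 0.05. Cx3cr1, a chemokine receptor of tissue macrophages, was at 0 in MKO NCD replicates 2 and 3 and MKO HFD replicate 2, and no other macrophage marker was at 0 anywhere. In tissue RNA, fewer cells of a type and less RNA per cell cannot be told apart.

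Levels between genes were compared as the authors' TPM, a normalised transcript abundance that accounts for gene length. Ifi27l2a, a small hydrophobic protein gene strongly induced by interferon, was far above the rest, with a mean of 2875 TPM over the 12 libraries and a range of 1982 to 4209. Next came Bst2 at 73.4 TPM, Gbp2 at 63.8, Ifi35 at 41.6 and Sp100 at 39.1, while Oas3 was lowest at 0.384. The group with the highest mean CPM was WT HFD for 20 of the 40 members, MKO NCD for 11, MKO HFD for 6 and WT NCD for 3, where it was WT HFD for 26.6% of all tested genes, MKO NCD for 19.2%, MKO HFD for 18.9% and WT NCD for 35.4%. With MKO NCD replicate 2 left out, WT HFD was highest for 25 members, MKO NCD for 7, MKO HFD for 5 and WT NCD for 3, against 27.2%, 18.2%, 19.1% and 35.5% of tested genes; Ifit3, Isg15, Dhx58, Stat2 and Irgm1 moved from MKO NCD to WT HFD, and Xaf1 joined MKO NCD. The guanylate-binding proteins and immunity-related GTPases among the members are called the 8 GTPases here, and the Mx genes are counted with the other 32. Of the 8 GTPases, 6 were highest in MKO NCD, 2 in MKO HFD and 0 in either WT group. Of the other 32 members, 20 were highest in WT HFD, 5 in MKO NCD, 4 in MKO HFD and 3 in WT NCD. With that library left out, 5 GTPases were highest in MKO NCD, 2 in MKO HFD and 1, Irgm1, in WT HFD.

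**Figure D1:**
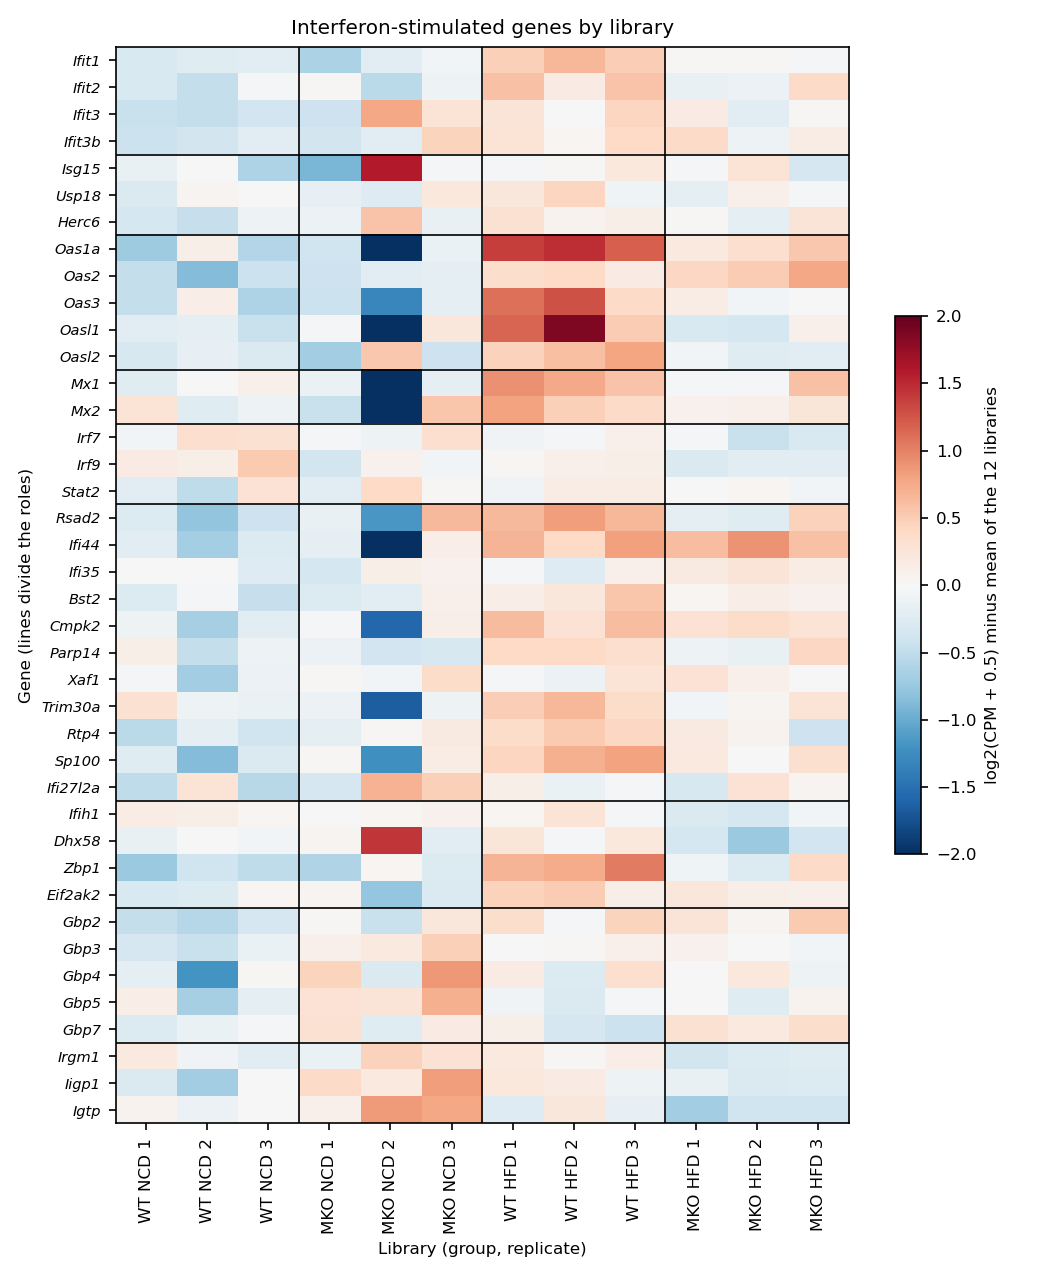
Each row is a member and each column a library; colour is log2(CPM + 0.5) minus the gene's mean over the 12 libraries, with the scale ending at -2 and 2, and black lines divide groups and gene classes. The block of WT HFD libraries is red over most of the IFIT, oligoadenylate synthetase and Mx rows. The MKO NCD block is red in most but not all cells of the GTPase rows at the bottom, and MKO NCD replicate 2 shows the 6 members at 0.

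The promoters of the members carry the DNA elements named above more often than promoters at large. RefSeq promoters on GRCm38.p6, from 250 bases before to 50 bases after the start of a gene, were matched for 29 of the 40 members. The ISRE core was read as GAAA repeated after any 2 bases on either strand, and the GAS core as TTC, any 3 bases, GAA, and each was counted whether or not it overlapped the other. The ISRE core was in the window of 18 of the 29 members (62.1%) against 571 of 14791 tested genes with a window (3.86%). It was in 6 of the 6 GTPases matched and in 12 of the 23 other members matched. The GAS core was in 8 of the 29 (27.6%) against 8.58% of those tested genes, with 3 of the 6 GTPases and 5 of the 23 other members.

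Stretches of 90 bases around the core are printed for 3 antiviral effectors whose mean was highest in WT HFD and 3 GTPases whose mean was highest in MKO NCD (for Irgm1 only with replicate 2 of that group), picked after their values were seen, to show that both classes carry it. Capitals mark the ISRE core or cores. Ifit1 is at chr19:34640745-34640834 on the plus strand, Oas1a at chr5:120907496-120907585 on the minus strand, Rsad2 at chr12:26456523-26456612 on the minus strand, Gbp3 at chr3:142559959-142560048 on the plus strand, Igtp at chr11:58199482-58199571 on the plus strand and Irgm1 at chr11:48871401-48871490 on the minus strand.
Ifit1: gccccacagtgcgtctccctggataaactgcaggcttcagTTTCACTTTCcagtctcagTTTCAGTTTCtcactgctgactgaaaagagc
Oas1a: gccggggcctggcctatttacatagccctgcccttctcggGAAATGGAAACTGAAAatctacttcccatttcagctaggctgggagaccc
Rsad2: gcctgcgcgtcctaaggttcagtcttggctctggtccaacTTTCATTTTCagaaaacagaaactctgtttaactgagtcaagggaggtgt
Gbp3: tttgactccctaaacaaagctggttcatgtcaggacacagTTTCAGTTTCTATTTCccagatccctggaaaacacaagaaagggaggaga
Igtp: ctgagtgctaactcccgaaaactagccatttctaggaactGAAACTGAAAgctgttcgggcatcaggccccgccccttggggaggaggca
Irgm1: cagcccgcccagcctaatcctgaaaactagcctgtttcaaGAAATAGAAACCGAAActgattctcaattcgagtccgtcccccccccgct
In Ifit1, Rsad2 and Gbp3 the core reads on the opposite strand, in Ifit1 it occurs at 2 places, and in Oas1a, Gbp3 and Irgm1 overlapping cores run together. Counted from the gene start, the first core begins at -120 in Rsad2, -104 in Ifit1, -45 in Gbp3, -34 in Igtp, -30 in Irgm1 and -20 in Oas1a. A match describes letters in this window and does not show that a factor binds there.

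The following values are CPM in replicates 1, 2 and 3 of each group. A change is given on the log2 scale, with its standard error (SE) and with the adjusted p of edgeR's quasi-likelihood test over all 20297 genes. The IFIT proteins bind foreign RNA and block its translation, and their genes lie side by side on chromosome 19. Ifit1 was at 5.40, 5.65 and 5.81 CPM in WT NCD, 4.22, 5.78 and 6.52 in MKO NCD, 9.64, 11.1 and 9.75 in WT HFD, and 6.91, 6.89 and 6.67 in MKO HFD. Every WT HFD library was above the other 9. Ifit1 rose with HFD in WT, with a log2 fold change of 0.85 (SE 0.24, adjusted p = 0.0335), and in MKO the change was 0.31 (SE 0.24, adjusted p = 0.570).

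Ifit2 was at 14.5, 12.8 and 17.7 CPM in WT NCD, 18.2, 12.2 and 16.6 in MKO NCD, 27.2, 20.2 and 26.8 in WT HFD, and 16.1, 16.4 and 23.5 in MKO HFD. Its rise with HFD in WT was 0.72 (SE 0.22, adjusted p = 0.0430), while the MKO HFD libraries overlapped both NCD groups. Ifit3, a partner of the other IFIT proteins, was at 19.1, 18.6 and 19.9 CPM in WT NCD, 19.5, 44.9 and 31.9 in MKO NCD, 31.5, 26.1 and 35.4 in WT HFD, and 29.4, 22.6 and 26.7 in MKO HFD. Its diet change in WT was 0.69 (SE 0.25, adjusted p = 0.0818), with no overlap between the WT groups, and its highest value of all was in MKO NCD replicate 2. Ifit3 shares 51.2% of its 50-base stretches with Ifit3b, so how reads divided between those neighbours is uncertain, and Ifit3b ranged from 8.06 to 15.2 CPM with a WT diet change of 0.61 (SE 0.25, adjusted p = 0.117).

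The oligoadenylate synthetase family senses double-stranded RNA, and those of its proteins that are active enzymes make the messenger that activates RNase L. Oas2 was at 10.2, 7.67 and 10.5 CPM in WT NCD, 10.6, 12.1 and 12.6 in MKO NCD, 18.4, 18.9 and 16.0 in WT HFD, and 19.2, 20.6 and 24.8 in MKO HFD. It rose with HFD in both genotypes, by 0.91 (SE 0.17, adjusted p = 0.00460) in WT mice and by 0.87 (SE 0.17, adjusted p = 0.0327) in MKO mice, and it was the one family member whose MKO HFD libraries lay above the WT HFD libraries. Oasl2 was at 13.6, 15.3 and 14.0 CPM in WT NCD, 10.4, 25.2 and 12.8 in MKO NCD, 23.7, 26.4 and 29.9 in WT HFD, and 16.6, 14.4 and 14.7 in MKO HFD. In WT, HFD libraries were higher by 0.90 (SE 0.27, adjusted p = 0.0442), and the 3 MKO HFD libraries lay within the range of the MKO NCD libraries. The top of that range, 25.2 CPM, was MKO NCD replicate 2, and all 3 MKO HFD libraries lay above MKO NCD replicates 1 and 3.

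Oas1a was at 2.74, 5.30 and 3.03 CPM in WT NCD, 3.52, 0 and 4.35 in MKO NCD, 13.3, 14.3 and 11.6 in WT HFD, and 5.62, 6.22 and 7.27 in MKO HFD. The WT HFD libraries were above all others, yet with MKO NCD replicate 2 at 0 the WT diet change was 1.83 (SE 1.12, adjusted p = 0.302). Without that library the same change was 1.83 (SE 0.26, adjusted p = 0.000941). Oas1a shares 57.6% of its 50-base stretches with Oas1g, so its count is uncertain in the same way as that of Ifit3.

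Oasl1, known in mouse as a repressor of Irf7 translation, was at 1.64, 1.73 and 1.34 CPM in WT NCD, 1.97, 0 and 2.44 in MKO NCD, 5.17, 8.64 and 3.10 in WT HFD, and 1.54, 1.48 and 2.21 in MKO HFD. Oas3 was at 0.389, 0.847 and 0.307 CPM in WT NCD, 0.420, 0 and 0.578 in MKO NCD, 2.14, 2.49 and 1.10 in WT HFD, and 0.869, 0.691 and 0.741 in MKO HFD. Both were highest in WT HFD with no overlap with any other group. Their WT diet changes were 1.84 (SE 1.19, adjusted p = 0.332) for Oasl1 and 1.89 (SE 1.17, adjusted p = 0.307) for Oas3 with all libraries, and 1.84 (SE 0.37, adjusted p = 0.00526) and 1.89 (SE 0.50, adjusted p = 0.0182) without MKO NCD replicate 2.

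The Mx genes encode dynamin-like GTPases that trap viral particles. Mx1 was at 1.58, 1.97 and 2.16 CPM in WT NCD, 1.75, 0 and 1.68 in MKO NCD, 4.16, 3.69 and 3.15 in WT HFD, and 1.92, 1.90 and 3.19 in MKO HFD. The WT HFD libraries lay above both NCD groups, and MKO HFD replicate 3 reached into their range. The WT diet change of Mx1 was 0.94 (SE 1.13, adjusted p = 0.635) with all libraries and 0.95 (SE 0.29, adjusted p = 0.0312) without MKO NCD replicate 2. Mx2, at 0 to 3.33 CPM, had a WT diet change of 0.71 (SE 1.18, adjusted p = 0.749).

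Among the other effectors, Rsad2 encodes viperin, an enzyme that makes a chain-terminating nucleotide, and Cmpk2, its neighbour on chromosome 12, encodes a mitochondrial nucleotide kinase. Rsad2 was at 12.1, 8.35 and 10.98 CPM in WT NCD, 13.3, 6.31 and 23.4 in MKO NCD, 23.5, 26.8 and 23.8 in WT HFD, and 12.9, 12.5 and 20.6 in MKO HFD. It rose with HFD in WT by 1.24 (SE 0.39, adjusted p = 0.0494), and MKO NCD held both the lowest library and one near the WT HFD level. Cmpk2 was at 8.97, 5.93 and 8.15 CPM in WT NCD, 9.54, 2.91 and 10.5 in MKO NCD, 15.2, 11.8 and 15.1 in WT HFD, and 11.9, 12.6 and 11.8 in MKO HFD. Its WT diet change was 0.87 (SE 0.39, adjusted p = 0.151) with all libraries and 0.87 (SE 0.17, adjusted p = 0.00472) without MKO NCD replicate 2, its lowest library.

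Bst2, which encodes tetherin, a membrane protein that holds budding virus on the cell, was at 23.4, 27.9 and 20.4 CPM in WT NCD, 23.5, 24.2 and 30.6 in MKO NCD, 31.2, 33.3 and 42.2 in WT HFD, and 29.4, 31.2 and 30.1 in MKO HFD. With HFD it rose in WT by 0.57 (SE 0.16, adjusted p = 0.0320), and the MKO HFD libraries lay just below those of WT HFD. Sp100, a component of nuclear bodies, was at 43.4, 27.7 and 41.6 CPM in WT NCD, 52.0, 21.7 and 57.1 in MKO NCD, 69.4, 83.8 and 90.2 in WT HFD, and 58.6, 51.0 and 63.8 in MKO HFD. The WT level rose with HFD by 1.11 (SE 0.31, adjusted p = 0.0292), and no other library reached the lowest WT HFD value. Rtp4, a receptor transporter protein, was at 7.94, 10.1 and 8.76 CPM in WT NCD, 10.2, 12.0 and 13.3 in MKO NCD, 15.3, 17.1 and 15.7 in WT HFD, and 13.3, 12.3 and 8.65 in MKO HFD. In WT it rose with HFD by 0.84 (SE 0.20, adjusted p = 0.0164), and the MKO HFD libraries overlapped both NCD groups.

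Ifi44 was at 2.47, 1.64 and 2.34 CPM in WT NCD, 2.4999, 0 and 3.28 in MKO NCD, 4.97, 4.04 and 5.55 in WT HFD, and 4.75, 5.91 and 4.66 in MKO HFD. Both HFD groups lay above both NCD groups and overlapped each other, with diet changes of 1.17 (SE 1.14, adjusted p = 0.540) in WT mice and of 1.41 (SE 1.14, adjusted p = 0.587) in MKO mice. Trim30a, of a ubiquitin ligase family, was at 32.3, 24.2 and 23.7 CPM in WT NCD, 23.8, 7.99 and 24.2 in MKO NCD, 36.7, 41.4 and 33.5 in WT HFD, and 25.1, 26.9 and 31.7 in MKO HFD. Parp14, an ADP-ribosyltransferase, was at 67.9, 44.9 and 58.2 CPM in WT NCD, 57.7, 48.1 and 50.1 in MKO NCD, 82.8, 82.9 and 79.3 in WT HFD, and 58.2, 56.2 and 83.5 in MKO HFD. For both genes WT HFD lay above WT NCD, with changes of 0.48 (SE 0.33, adjusted p = 0.370) and 0.52 (SE 0.18, adjusted p = 0.0678).

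Ifi35 was at 27.4, 27.6 and 23.0 CPM in WT NCD, 21.5, 29.8 and 29.1 in MKO NCD, 26.8, 22.9 and 29.4 in WT HFD, and 31.3, 32.8 and 30.5 in MKO HFD. It was 1 of 3 members with MKO HFD above WT HFD in every library, with a genotype change on HFD of 0.26 (SE 0.15, adjusted p = 0.5004). Ifi27l2a, the most abundant member, was at 446, 765 and 432 CPM in WT NCD, 504, 1031 and 882 in MKO NCD, 689, 577 and 627 in WT HFD, and 509.5, 776 and 659 in MKO HFD. Its groups overlapped in all 4 pairwise comparisons, and the largest of its changes was MKO against WT on NCD, at 0.56 (SE 0.28, adjusted p = 0.317). Xaf1, which encodes a partner of an apoptosis inhibitor, ranged from 10.3 to 22.0 CPM, and none of its groups were separated.

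The sensors recognise foreign nucleic acid. Zbp1, which binds Z-form nucleic acid and can start necroptosis, was at 2.60, 3.45 and 3.16 CPM in WT NCD, 2.92, 4.80 and 3.77 in MKO NCD, 7.83, 8.15 and 10.1 in WT HFD, and 4.39, 3.80 and 6.23 in MKO HFD. It rose with HFD in WT by 1.503 (SE 0.34, adjusted p = 0.0123), the largest change among the members past the threshold, and no library of another group reached the lowest WT HFD value. Eif2ak2, the kinase PKR that stops translation on double-stranded RNA, was at 36.1, 36.6 and 45.8 CPM in WT NCD, 46.1, 25.8 and 36.3 in MKO NCD, 61.3, 63.7 and 48.3 in WT HFD, and 51.8, 48.5 and 47.6 in MKO HFD. Its WT diet change was 0.55 (SE 0.19, adjusted p = 0.0777) with all libraries and 0.55 (SE 0.14, adjusted p = 0.0165) without MKO NCD replicate 2.

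Dhx58, the RNA helicase LGP2, was at 6.76, 7.50 and 7.30 CPM in WT NCD, 7.88, 21.2 and 6.36 in MKO NCD, 9.01, 7.46 and 8.84 in WT HFD, and 5.80, 4.32 and 5.70 in MKO HFD. MKO HFD was the lowest group with no overlap with any other, and MKO NCD replicate 2 was the highest library. Its genotype change on HFD was -0.68 (SE 0.40, adjusted p = 0.5004) with all libraries and -0.68 (SE 0.18, adjusted p = 0.0460) without MKO NCD replicate 2. Ifih1, the RNA helicase MDA5, ranged from 25.8 to 40.02 CPM, with MKO HFD below WT HFD in every library and a change of -0.32 (SE 0.12, adjusted p = 0.212).

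Isg15 is conjugated to proteins like ubiquitin, Herc6 is the main mouse ligase for it, and Usp18 removes it. Herc6 was at 12.9, 11.9 and 15.4 CPM in WT NCD, 15.3, 25.0 and 15.0 in MKO NCD, 20.7, 17.3 and 18.02 in WT HFD, and 16.8, 14.5 and 19.95 in MKO HFD. Its WT diet change was 0.48 (SE 0.22, adjusted p = 0.161) with all libraries and 0.48 (SE 0.15, adjusted p = 0.0357) without MKO NCD replicate 2, and 23.8% of its 50-base stretches are shared with a predicted gene. Isg15 ranged from 2.46 to 16.2 CPM, with both extremes in MKO NCD, and Usp18 from 3.39 to 5.90 CPM. Neither had separated groups in any comparison.

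None of the 3 transcription factors passed in any comparison. Irf7, which amplifies type I interferon production, ranged from 13.0 to 22.7 CPM, and its WT diet change was -0.22 (SE 0.18, adjusted p = 0.449). Irf9, the DNA-binding subunit of the type I complex, was at 31.6, 30.6 and 41.0 CPM in WT NCD, 21.9, 30.1 and 27.3 in MKO NCD, 28.7, 30.4 and 30.5 in WT HFD, and 23.0, 24.2 and 24.2 in MKO HFD. It was the one member whose WT HFD libraries all lay below the WT NCD libraries, with a change of -0.20 (SE 0.15, adjusted p = 0.393), and MKO lay below WT on both diets, with changes of -0.38 (SE 0.15, adjusted p = 0.178) with chow and of -0.33 (SE 0.15, adjusted p = 0.324) with the high-fat diet. Stat2 ranged from 28.4 to 53.6 CPM with a WT diet change of 0.19 (SE 0.20, adjusted p = 0.583).

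The guanylate-binding proteins coat and break up vacuoles that hold pathogens. Gbp3 was at 25.8, 23.9 and 29.7 CPM in WT NCD, 35.2, 37.7 and 45.9 in MKO NCD, 33.2, 33.4 and 35.2 in WT HFD, and 35.0, 32.5 and 31.5 in MKO HFD. It was higher in MKO than in WT on NCD, by 0.58 (SE 0.13, adjusted p = 0.0297), and the HFD groups overlapped with a genotype change of -0.04 (SE 0.13, adjusted p = 0.981). Gbp2 was at 53.2, 49.96 and 58.7 CPM in WT NCD, 75.6, 54.2 and 86.9 in MKO NCD, 94.4, 72.1 and 101 in WT HFD, and 88.7, 76.9 and 107 in MKO HFD. It rose with HFD in WT by 0.73 (SE 0.19, adjusted p = 0.0239), and the 2 HFD groups overlapped.

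The other 3 guanylate-binding proteins had no test past the threshold in the fit of all libraries. Their changes in MKO against WT on NCD were 0.79 (SE 0.33, adjusted p = 0.219) for Gbp4, 0.65 (SE 0.22, adjusted p = 0.128) for Gbp5 and 0.24 (SE 0.17, adjusted p = 0.502) for Gbp7. On HFD the same contrast gave -0.06, 0.07 and 0.48. Gbp5 was separated between genotypes on NCD and Gbp7 on HFD, in both cases with MKO higher.

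The immunity-related GTPases act on the same vacuoles, with Iigp1 as an effector and Igtp and Irgm1 as regulators. Iigp1 was at 31.9, 24.0 and 39.0 CPM in WT NCD, 51.0, 44.7 and 70.3 in MKO NCD, 45.3, 43.7 and 36.4 in WT HFD, and 35.2, 31.8 and 32.2 in MKO HFD. It was higher in MKO than in WT on NCD, by 0.81 (SE 0.20, adjusted p = 0.0476). On HFD the MKO libraries all lay below the WT libraries, with a change of -0.34 (SE 0.20, adjusted p = 0.501).

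Igtp was at 19.9, 17.5 and 19.2 CPM in WT NCD, 20.4, 34.9 and 33.0 in MKO NCD, 15.8, 22.3 and 17.0 in WT HFD, and 11.5, 14.3 and 14.3 in MKO HFD. It fell with HFD in MKO, by -1.14 (SE 0.21, adjusted p = 0.0264), and its WT diet change was -0.04 (SE 0.21, adjusted p = 0.938). Irgm1 was at 34.0, 28.0 and 25.6 CPM in WT NCD, 27.0, 40.7 and 36.4 in MKO NCD, 33.9, 30.1 and 32.5 in WT HFD, and 22.8, 24.5 and 25.0 in MKO HFD. Its MKO HFD libraries lay below every other library, with a diet change in MKO of -0.52 (SE 0.16, adjusted p = 0.134). Igtp shares 12.3% of its 50-base stretches, mostly with Irgm2, which may blur its count. The same limit holds for Rtp4, at 13.6%, and for Gbp4 and Gbp7, each at 12.8%.

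**Figure D2:**
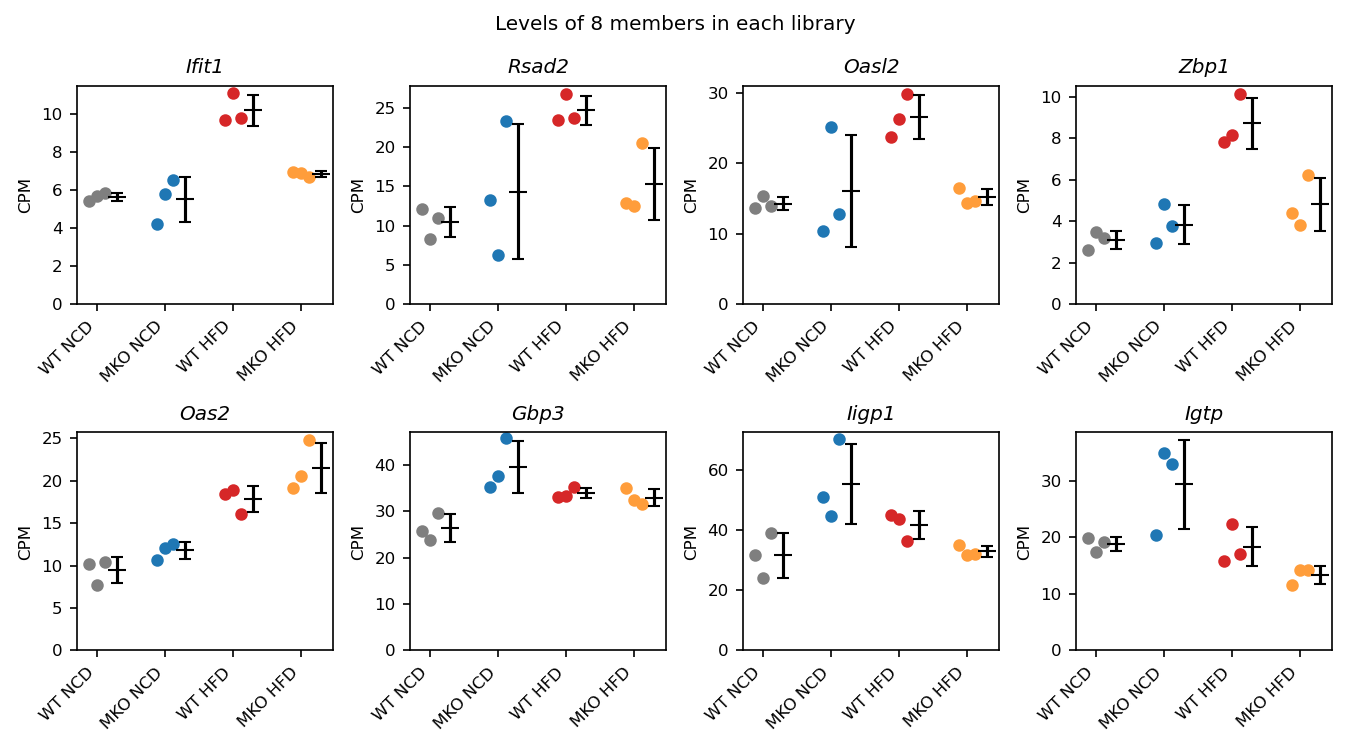
Points are CPM in each library for 8 members, in the 4 groups of 3 libraries, and the black mark beside them is the mean with bars of 1 SD; axes start at 0. Ifit1, Rsad2, Oasl2 and Zbp1 are highest in WT HFD, Oas2 is high in both HFD groups, and Gbp3, Iigp1 and Igtp have their highest mean in MKO NCD.

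Diet in WT mice was the contrast with the most members called. With HFD, Zbp1, Rsad2, Sp100, Oas2, Oasl2, Ifit1, Rtp4, Gbp2, Ifit2 and Bst2 rose, by log2 fold changes from 0.57 for Bst2 to 1.503 for Zbp1. That is 10 of 40 members higher and 0 lower, against 9.5% of all tested genes higher and 8.28% lower. The median change of the 40 was 0.53 against -0.09 over all tested genes, and 35 were positive. By class, 2 of 4 IFIT genes, 2 of 5 oligoadenylate synthetases, 4 of 11 other effectors, 1 of 4 sensors and 1 of 8 GTPases rose. WT HFD lay above WT NCD in every library for 24 members and below for 1, where 22.8% and 24.2% of all tested genes did so.

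The count of members called in that contrast depended on the libraries kept. It was 1, 4 and 4 without WT NCD replicates 1, 2 and 3, then 3, 3 and 2 without WT HFD replicates 1, 2 and 3, and 6 and 5 without MKO HFD replicates 1 and 2. All genes called in those fits numbered 2606, 2610 and 2808, then 2031, 1884 and 2569, and 3118 and 3074. With all libraries they numbered 3610, so the count of members fell by a larger share than that of all genes. Without MKO NCD replicate 2 the members called were 21 higher and 0 lower, against 15.1% and 16.3% of genes. The additions were Ifit3, Oas1a, Oas3, Oasl1, Mx1, Ifi44, Gbp3, Cmpk2, Trim30a, Herc6 and Eif2ak2. Oas2 was called in each of the 12 fits that left out 1 library, Zbp1 in 10, Gbp2 and Rtp4 in 8, Bst2 in 7, Sp100 in 6, Ifit2 in 4, Ifit1 and Oasl2 in 3, and Rsad2 in 2. The macrophage marker sum was higher in WT HFD over the same contrast and the epididymis transcripts were in WT NCD. Of 10 adipocyte markers, 4 were called lower and 1 higher in WT HFD, with sums of 19174 to 35436 CPM in WT NCD and 19094 to 24319 CPM in WT HFD. All 8 endothelial markers had a positive change, with a median of 0.78, and 1 was called, or 4 with MKO NCD replicate 2 left out; their sums were 253.3 to 641.4 CPM in WT NCD and 762.1 to 1024 CPM in WT HFD. The part of these markers in the result was not tested.

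Between the genotypes on HFD, the members leaned lower in MKO without any single gene passing in the fit of all libraries. The count was 0 of 40 in either direction, against 1.34% of all tested genes higher and 2.24% lower. An unadjusted p under 0.05 was found for 8 members. All tested genes were not counted at that cut, so no excess can be read from it. The changes were largest for Oasl1 at -1.69, Oas3 at -1.32, Oas1a at -1.04, Zbp1 at -0.86 and Oasl2 at -0.81. Of the 40, 32 were negative, with a median of -0.29 against 0 over all tested genes. MKO HFD lay below WT HFD in every library for 18 members, and above it for 3 (Oas2, Ifi35 and Gbp7), where 17.3% and 15.8% of all tested genes did so.

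Other fits of the same HFD libraries did call members. Without MKO NCD replicate 2, edgeR called 4 lower and 0 higher, against 4.74% and 2.58% of all genes. Those were Oasl2 at -0.81 (SE 0.13, adjusted p = 0.0123), Oasl1 at -1.69 (SE 0.37, adjusted p = 0.0269), Oas1a at -1.04 (SE 0.25, adjusted p = 0.0376) and Dhx58 at -0.68 (SE 0.18, adjusted p = 0.0460). A fit of the 6 HFD libraries alone called 7 lower (Ifit1, Oas1a, Oasl1, Oasl2, Zbp1, Irgm1 and Sp100) and 0 higher, against 8.09% and 4.58% of genes. DESeq2 called 3 lower, namely Ifit1, Oasl2 and Zbp1, and 0 higher, against 7.09% and 4.36% of its genes, and limma-voom called 0 members, against 2.99% lower and 1.3% higher. In the authors' deposited table, lower members numbered 10 and 1, Gbp7, was higher, against 10.6% and 6.78% of its genes. The 10 in the authors' deposited table were Ifit1, Oas1a, Oas3, Oasl1, Oasl2, Rsad2, Dhx58, Zbp1, Irgm1 and Sp100. The macrophage marker sum was lower in MKO HFD in every library. Of 10 adipocyte markers, 5 were called higher in MKO HFD and 0 lower, with a median change of 0.72 and sums of 25716 to 29786 CPM against 19094 to 24319 CPM in WT HFD. All 6 B cell markers had a negative change, with a median of -2.25 and 0 called, and summed to 3.86 to 5.36 CPM against 5.46 to 27.5 CPM. With MKO NCD replicate 2 left out, 1 of these 6 was called lower. The part of these markers in the changes was not tested.

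Between the genotypes on NCD, the members called were among the 8 GTPases of the Gbp and Irg families. Gbp3 and Iigp1 were higher in MKO, the 2 members of 40 past the threshold, with 0 lower, against 2.22% of all tested genes higher and 2.13% lower. All 8 GTPases had a positive change, with a median of 0.61, while the other 32 members had a median of 0.06 with 18 positive. Over the 40 members the median was 0.21 against -0.14 over all tested genes. MKO NCD lay above WT NCD in every library for 6 members (Oas2, Gbp3, Gbp5, Iigp1, Igtp and Rtp4) and below for Irf9, where 9.63% and 15.6% of all tested genes did so.

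The calls on NCD changed with single libraries. Without MKO NCD replicate 2 the changes were 0.62 (SE 0.13, adjusted p = 0.0308) for Gbp3 and 0.94 (SE 0.20, adjusted p = 0.0285) for Iigp1, and the count stayed at 2, all higher, against 1.95% of genes higher and 2.81% lower. The count was 0 without WT NCD replicates 1 or 2, MKO NCD replicate 3, WT HFD replicate 1 or MKO HFD replicate 2, and 1 without WT HFD replicates 2 or 3 or MKO HFD replicates 1 or 3. All genes called in those fits numbered 415, 572, 391, 545 and 584, then 653, 627, 590 and 685, against 882 with all libraries. Without MKO NCD replicate 1 the members called were 3, namely Gbp3, Ifit3 and Igtp, beside 654 of all genes. Gbp3 was called in 7 of the 12 fits that left out 1 library and Iigp1 in 2. In the authors' deposited table no member was called on NCD, against 2.31% of its genes higher and 5.43% lower. Epididymis transcripts summed to 6353 to 6890 CPM in WT NCD and 0 to 19.5 CPM in MKO NCD. Macrophage marker sums overlapped between these groups, and 1 of 8 endothelial and 2 of 10 adipocyte markers were called higher in MKO. All 8 endothelial markers had a positive change, with a median of 0.81, and so had all 10 adipocyte markers, with a median of 0.60. With MKO NCD replicate 2 left out, 1 endothelial and 0 adipocyte markers were called, with 7 endothelial and 5 adipocyte markers at an unadjusted p under 0.05. The medians were then 1.04 and 0.48. All 6 B cell markers had a negative change, with a median of -2.29 and 0 called. All 6 were at 0 in MKO NCD replicate 2, and without that library the median was -1.70, with 0 called. The part of these markers in the result was not tested.

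**Figure D3:**
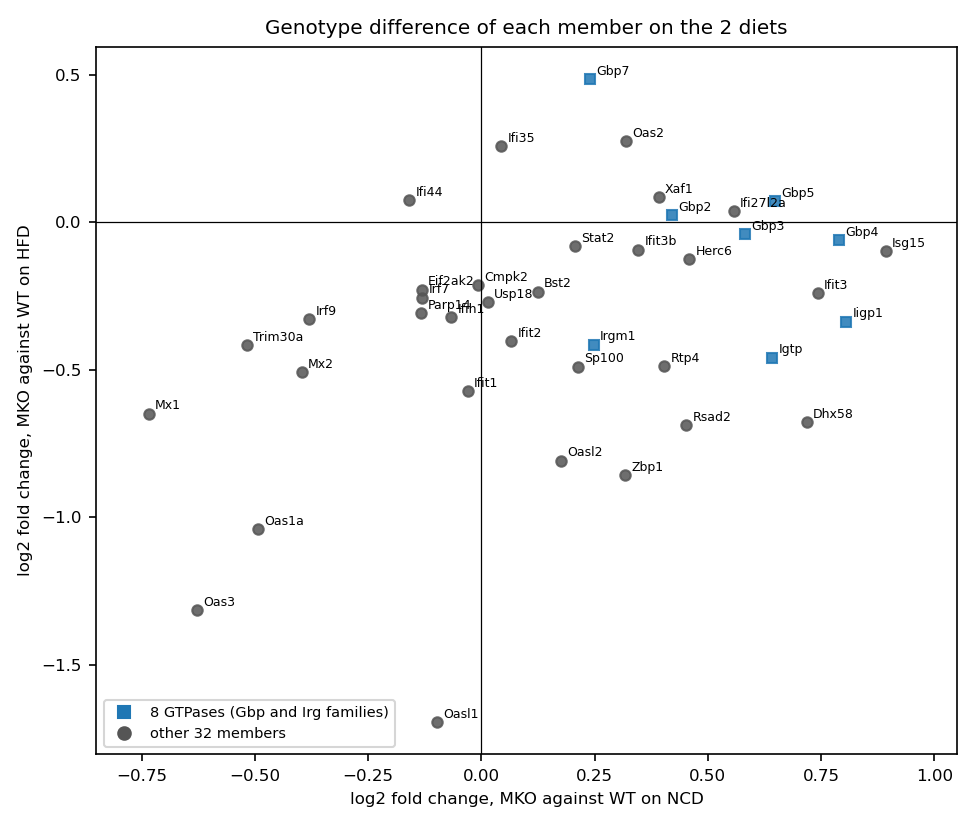
Each point is a member, with its log2 fold change of MKO against WT on NCD on the x axis and on HFD on the y axis; blue squares are the 8 GTPases and grey circles the other 32 members. All 8 squares lie right of 0, while 27 of the 32 circles lie below 0 on the y axis.

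Diet in MKO mice moved few members. Oas2 rose and Igtp fell, 1 of 40 in each direction against 1.04% of all tested genes higher and 0.966% lower. The median was 0.13 over the members and 0.06 over all tested genes. The GTPases had a median of -0.44, with 6 of 8 negative, and the other members a median of 0.22. MKO HFD lay above MKO NCD in every library for 10 members and below for 7, where 15.1% and 9.17% of all tested genes did so, and 5 of those 7 were GTPases (Gbp3, Gbp5, Irgm1, Iigp1 and Igtp).

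Both calls in MKO also changed with single libraries. Without MKO NCD replicate 2 Oas2 kept its call at 0.89 (SE 0.18, adjusted p = 0.0447) and Igtp was at -1.0 (SE 0.22, adjusted p = 0.0510), leaving 1 higher and 0 lower against 0.912% and 0.741% of genes. The count was 0 without MKO NCD replicate 3 or any 1 of the 3 MKO HFD replicates, and 1 without any 1 of the 3 WT HFD replicates. All genes called in those fits numbered 100, then 129, 75 and 93, and 219, 271 and 254, against 408 with all libraries. The macrophage marker sums of the 2 diet groups overlapped. Of 10 adipocyte markers, 7 had a negative and 3 a positive change, with a median of -0.36, and 1 was called lower. Without MKO NCD replicate 2 their median was -0.34 and 0 were called. The 8 endothelial markers had a median of 0.23 with all libraries and -0.04 without that library, with 0 called in either fit. The part of these markers in the result was not tested.

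The difference between the diet effects, MKO minus WT, was tested as an interaction. No member passed, against 0.118% of all tested genes higher and 0.143% lower, and 9 members had an unadjusted p under 0.05. The values nearest the threshold were -1.14 (SE 0.28, adjusted p = 0.0941) for Iigp1, -1.10 (SE 0.30, adjusted p = 0.119) for Igtp, -0.62 (SE 0.18, adjusted p = 0.138) for Gbp3 and -0.89 (SE 0.29, adjusted p = 0.189) for Rtp4. Negative interactions were seen in 34 of 40 members, with a median of -0.49 against 0.12 over all tested genes. DESeq2 called 3 members, Iigp1, Igtp and Rtp4, against 6.54% of its genes, and limma-voom called 0 against 0.867%. Without MKO NCD replicate 2, edgeR called 0, against 0.412% higher and 0.472% lower, with 16 members at an unadjusted p under 0.05. The share of all tested genes under that unadjusted cut was not counted, so neither 9 nor 16 shows an excess. The epididymis transcripts of WT NCD fall in this contrast too, and their part was not tested.

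Iigp1, Igtp and Rtp4 were higher in MKO than in WT in every library on NCD and lower in every library on HFD. Among all tested genes, 202 (0.995%) had that pattern. Their mean levels on NCD were 31.6 ± 7.51 CPM in WT and 55.3 ± 13.3 in MKO for Iigp1, 18.9 ± 1.22 and 29.4 ± 7.86 for Igtp, and 8.95 ± 1.12 and 11.8 ± 1.55 for Rtp4 (SD, n = 3). On HFD they were 41.8 ± 4.74 and 33.1 ± 1.87, 18.4 ± 3.45 and 13.4 ± 1.57, and 16.0 ± 0.956 and 11.4 ± 2.47 CPM.

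Summed levels show the 3 classes side by side. The 4 IFIT genes summed to 45.5 to 52.8 CPM in WT NCD, 50.4 to 72.3 in MKO NCD, 68.8 to 86.7 in WT HFD and 56.1 to 69.2 in MKO HFD. The 5 oligoadenylate synthetases summed to 28.6 to 30.9, 26.9 to 37.4, 61.8 to 70.8 and 43.4 to 49.7 CPM in the same order, so WT HFD lay above MKO HFD and both above the NCD groups. The 8 GTPases summed to 208.5 to 270.2, 300.6 to 424.1, 282.3 to 330.6 and 290.2 to 318 CPM, so MKO NCD overlapped the HFD groups and only WT NCD lay apart, below. The macrophage marker sums, given above, overlapped between MKO HFD and both NCD groups, with WT HFD above.

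**Figure D4:**
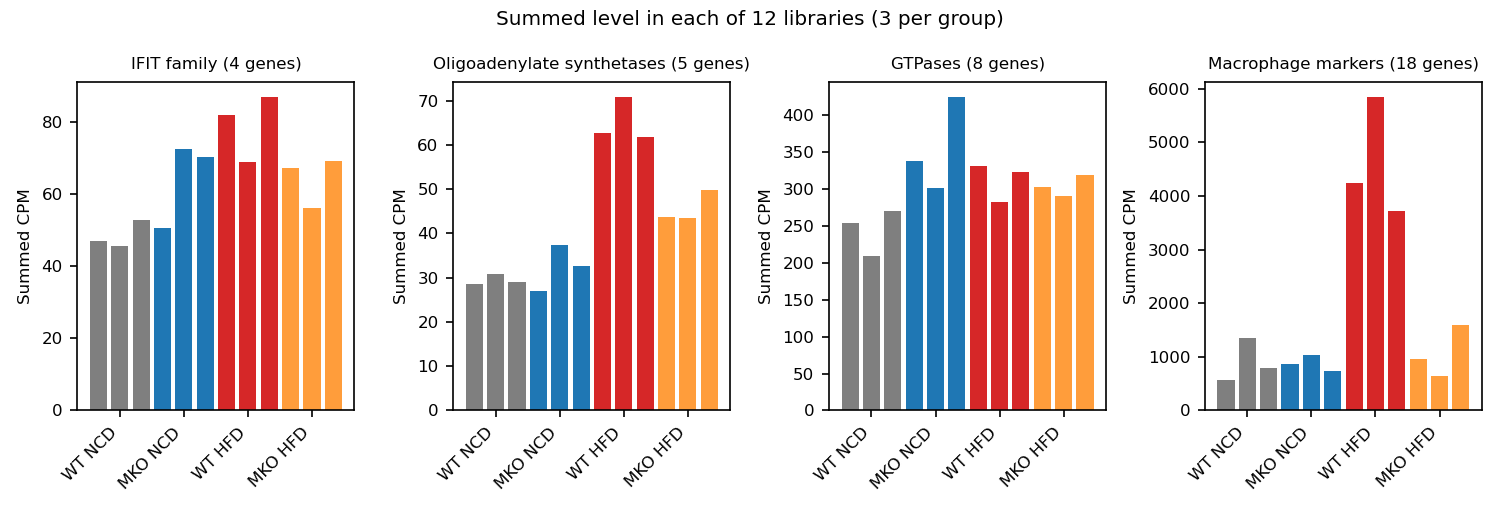
Bars are the summed CPM of each of the 12 libraries for the IFIT genes, oligoadenylate synthetases, GTPases and macrophage markers, each on its own axis from 0, coloured by group. The oligoadenylate synthetases in MKO HFD, at 43.4 to 49.7, stand between WT NCD and WT HFD, while the macrophage markers in MKO HFD stand at 648.7 to 1597 against 3720 to 5843 in WT HFD.

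The rest of the pathway was described from hand-written lists. Of 16 interferon genes listed, 3 were in the table (Ifne, Ifnz and Ifng) and none had enough counts to be tested. Ifng, the gene of interferon gamma, was at 0 to 0.141 CPM. Siglech, the defining marker of plasmacytoid dendritic cells, which are strong producers of type I interferon, was at 0.633 to 3.56 CPM. Its TPM was 0.965 to 2.01 in WT HFD and 0.443 to 0.591 in MKO HFD. Of 7 markers of these cells tested, 6 had a negative change in MKO against WT on HFD, with a median of -2.39. With all libraries 0 were called, and 1 was called lower without MKO NCD replicate 2, against 2.24% and 4.74% of tested genes. The part of these cells was not tested. T and NK cell markers, a source of interferon gamma, summed to 6.29 to 16.3 CPM.

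Receptor genes rose with HFD in WT for 4 of 6 tested, against the 9.5% of all tested genes given above. They were Il10rb at 0.88 (SE 0.11, adjusted p = 0.000640), Ifnar1 at 0.70 (SE 0.10, adjusted p = 0.00123), Ifnar2 at 1.01 (SE 0.16, adjusted p = 0.00169) and Ifngr2 at 1.09 (SE 0.19, adjusted p = 0.00329). On HFD, 1 of 6 was lower in MKO, Il10rb at -0.58 (SE 0.11, adjusted p = 0.0228), against 2.24% of all tested genes, and none was called in the other contrasts. With MKO NCD replicate 2 left out, 3 of 6 were lower in MKO on HFD, against 4.74%. Il10rb, a shared chain of the interferon lambda and interleukin-10 receptors, was at 46.5, 51.0 and 46.9 CPM in WT NCD, 58.7, 49.5 and 49.95 in MKO NCD, 84.9, 91.5 and 89.8 in WT HFD, and 57.7, 52.5 and 67.5 in MKO HFD. The WT HFD libraries lay above all others.

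Of 13 signalling genes, 5 rose with HFD in WT and none fell, against 9.5% and 8.28% of all tested genes. With MKO NCD replicate 2 left out, 6 rose and 0 fell, against 15.1% and 16.3%. The 5 included the myeloid transcription factors Irf8 at 2.48 (SE 0.30, adjusted p = 0.000497) and Irf5 at 2.27 (SE 0.34, adjusted p = 0.00137), and Usp25 at 0.53 (SE 0.13, adjusted p = 0.0165). Irf5 was lower in MKO on HFD, at -1.89 (SE 0.33, adjusted p = 0.0161), Irf8 rose with HFD in MKO, at 1.33 (SE 0.29, adjusted p = 0.0442), and the phosphatase gene Ptpn11 was higher in MKO on NCD, at 0.54 (SE 0.12, adjusted p = 0.0307). The last 2 did not pass without MKO NCD replicate 2, with Irf8 at 1.35 (SE 0.34, adjusted p = 0.0821) and Ptpn11 at 0.43 (SE 0.12, adjusted p = 0.0633).

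Of 15 genes of nucleic acid sensing and its signalling, 7 rose with HFD in WT and 5 were lower in MKO on HFD. The shares of all tested genes were 9.5% and 2.24%. With MKO NCD replicate 2 left out, 10 rose and 7 were lower, against 15.1% and 4.74%. The kinase gene Ikbke was at 11.1, 10.1 and 11.1 CPM in WT NCD, 11.3, 13.2 and 11.9 in MKO NCD, 31.7, 39.1 and 29.2 in WT HFD, and 12.5, 9.44 and 16.5 in MKO HFD. WT HFD lay above all other libraries, with a diet change of 1.63 (SE 0.20, adjusted p = 0.000561) and a genotype change on HFD of -1.38 (SE 0.20, adjusted p = 0.0108). The endosomal RNA receptor Tlr7, the DNA sensor Aim2 and the nucleotide hydrolase Samhd1 were lower in MKO on HFD too, at -2.09 (SE 0.36, adjusted p = 0.0152), -1.53 (SE 0.29, adjusted p = 0.0205) and -1.0 (SE 0.17, adjusted p = 0.0129). These moved over the same 2 contrasts as the macrophage markers, whose part was not tested.

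Of 67 further interferon-stimulated genes tested, 19 rose and 2 fell with HFD in WT, 4 were lower in MKO on HFD, and 2 were higher in MKO on NCD. The shares of all tested genes were 9.5%, 8.28%, 2.24% and 2.22%. With MKO NCD replicate 2 left out, 31 rose and 5 fell with HFD in WT, 14 were lower and 1 higher in MKO on HFD, and 4 were higher in MKO on NCD, against 15.1%, 16.3%, 4.74%, 2.58% and 1.95%. The rises were led by Slfn9 at 2.14 (SE 0.22, adjusted p = 0.000227), Gbp6 at 1.83 (SE 0.24, adjusted p = 0.000662), Slfn2 at 1.88 (SE 0.28, adjusted p = 0.00129) and Gbp10 at 2.04 (SE 0.31, adjusted p = 0.00143). Not all guanylate-binding proteins thus followed those among the members. Gbp6 was at 30.5 to 36.2 TPM in WT HFD and 12.5 to 14.5 TPM in MKO NCD. For Gbp10 these were 11.3 to 13.6 and 4.30 to 5.91 TPM. The 2 higher in MKO on NCD were Tgtp1, another immunity-related GTPase, at 0.99 (SE 0.20, adjusted p = 0.0253), and Lgals3bp at 0.78 (SE 0.18, adjusted p = 0.0422). Tgtp1 was at 15.2, 13.8 and 19.5 CPM in WT NCD, 26.1, 29.5 and 40.2 in MKO NCD, 13.3, 9.81 and 12.8 in WT HFD, and 12.6, 14.4 and 12.0 in MKO HFD. All 3 MKO NCD libraries lay above the other 9. In MKO, Tgtp1 and its near-copy Tgtp2 fell with HFD, by -1.30 (SE 0.21, adjusted p = 0.0146) and -1.04 (SE 0.21, adjusted p = 0.0340), Znfx1 fell as well, at -0.69 (SE 0.10, adjusted p = 0.0107), and Slfn9 rose, at 1.92 (SE 0.22, adjusted p = 0.00326). The median of the 67 was 0.23 in MKO against WT on NCD and -0.33 on HFD, against -0.14 and 0 over all tested genes.

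**Figure D5:**
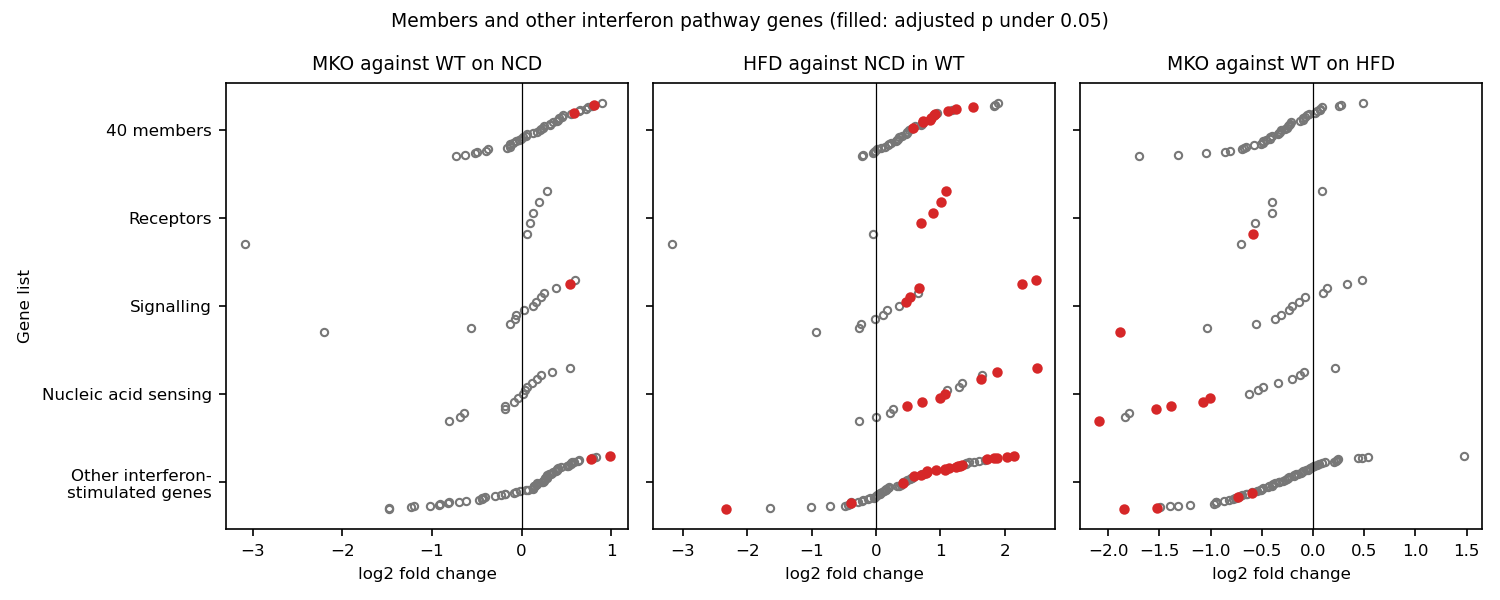
Points are genes with their log2 fold change on the x axis in 3 contrasts, in rows for the 40 members and the 4 other lists with tested genes; filled red points passed an adjusted p of 0.05 and the vertical line marks 0. With HFD in WT, 10 members, 4 receptors, 5 signalling genes, 7 sensing genes and 19 further interferon-stimulated genes are red to the right of 0.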

How the data were processed

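RNA of gonadal white adipose tissue in 12 samples was sequenced after stranded mRNA library preparation, per the labels' protocols. The submitters' processing notes name the mm10 build and the tools HISAT2 2.1.0, StringTie 1.3.4d, DESeq2, bcl2fastq 2.20.0 and Trimmomatic; how strand was set in counting is not given in the sources used here. Per the file headers, the authors deposited 1 table with read counts and TPM per gene and library, and the authors' signed fold change (a score) and adjusted p-value for each genotype contrast. The table's 24 other columns of per-library values were not used.

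Counts were tested with edgeR 4.0.16 in R 4.3.3: filterByExpr by group, TMM, 1 robust quasi-likelihood fit of the 12 libraries, 5 contrasts, and Benjamini-Hochberg adjustment over 20297 genes at a threshold of 0.05. SE is the absolute log2 fold change over the square root of F. Where counts at an unadjusted p under 0.05 are given, all tested genes were not counted at that cut. CPM uses TMM library sizes, which also limit precision: totals were 52.9 to 72.7 M counts. Gene positions, promoters and shared 50-base stretches came from RefSeq (GRCm38.p6) and GENCODE M21. Alternatives were RLE and upper-quartile factors, other count filters, DESeq2 1.42.0, limma-voom (limma 3.58.1), 6-library fits, a replicate block and leaving out each library. Scripts were tested on simulated data. Figures used Python 3.11.15 and matplotlib 3.10.9.

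The members, lists and tests were chosen with earlier results of these data known. Library values are printed for members called in any fit of all libraries or of 11, and for the 5 with the highest TPM. Other interferon lists are named by their called genes, up to 4 per list and contrast by smallest p; where fewer are printed they are a subset.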

Additional observations from a re-analysis of the deposited data

How the results depend on the processing

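The members called were 2 in MKO against WT on NCD, 0 in MKO against WT on HFD, 10 for HFD in WT, 2 for HFD in MKO and 0 for the interaction; all genes called were 882, 725, 3610, 408 and 53. RLE size factors left 0 members for MKO against WT on NCD. Upper-quartile factors left 1 there and 5 for HFD in WT. With no count filter there were 5 for HFD in WT and 1 for HFD in MKO, and with a filter of 1 CPM there was 1 for MKO against WT on NCD. DESeq2 gave 3 members for MKO against WT on HFD, 5 for HFD in MKO and 3 for the interaction, and 2349, 1754, 5468, 1781 and 1162 genes in the order above. With limma-voom, all genes were 1417 for MKO against WT on NCD and 176 for the interaction. Fits of only the 6 libraries compared gave 0, 7 and 0 members for MKO against WT on NCD, on HFD and HFD in MKO, with 53, 2260 and 41 genes. Shifts of the median of all genes under other scalings were at most 0.0748 on the log2 scale.

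Replicate numbers did not pair the libraries: 4 of 18 same-numbered pairs correlated above 0.1, and 3 of 12 libraries correlated best with their own number. With a replicate block, 0 members were called for MKO against WT on NCD and 1 for HFD in MKO, and all genes were 482, 262, 160 and 12 for MKO against WT on NCD, on HFD, HFD in MKO and the interaction.

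Leaving out 1 library at a time gave 0 to 3, 0 to 4, 1 to 21, 0 to 2 and 0 to 0 members, and 391 to 1028, 7 to 1580, 1884 to 6789, 75 to 480 and 2 to 288 genes, in the order of the first sentence. The cause of these shifts was not tested. Of 3959 values of single members under alternatives, 3801 kept their side of the threshold, 109 of them with a changed sign and neither value past it, 114 lost and 44 gained a call, and 0 reversed a called direction. Most of these values had no call to lose, so the 3801 say little of how firm the calls were. Single calls were kept in from 5 of 20 settings, for Iigp1 on NCD, to 20 of 20, for Oas2 with HFD in WT. Low members are limited by depth: Oas3 had at most 2.49 CPM.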
